A study of Oryza sativa with 12 samples.

Results

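Synthesis of cysteine and glutathione in rice roots was followed through 4 genes: the serine acetyltransferase genes SAT4 and SAT5, the cysteine synthase gene rcs1 (LOC4352839) and gcs, the gene of glutamate-cysteine ligase. They were chosen by name, with earlier results of these data known. A gene was taken if its symbol or synonym in the probe annotation or in RefSeq's gene table is one of these. Each is measured by at least 1 probe set that the annotation assigns to a single gene. The 4 genes have 7 such probe sets, among 17905 genes with a single-gene probe set on the array. The mean signal was high enough for a test on 6 of the 7 probe sets, at least 1 for every gene, among 28461 tested probe sets in all. RefSeq's gene table (assembly ASM3414082v1) places SAT4 on chromosome 3, SAT5 and gcs on chromosome 5 and rcs1 on chromosome 12.

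RNA was from roots of 2 rice varieties, Azucena and Bala, that grew in hydroponics under 12 hours of light for 7 days, either without arsenate or with arsenate at 1 ppm (13.3 uM). Each variety thus has a control group and an arsenate group, and each of the 4 groups has 3 arrays, 12 in all. Each sample pooled 100 mg of root from 4 plants of the same pot, and the 4 samples with the same replicate number were harvested together in 1 of 3 independent experiments. The varieties are lines of different genetic background, so that a difference between them belongs to the whole genotype, and whole roots hold many cell types: fewer cells of a type and less RNA per cell cannot be told apart.

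Plants make cysteine in 2 steps. Serine acetyltransferase activates serine to O-acetylserine, and cysteine synthase, also called O-acetylserine (thiol) lyase, replaces the acetyl group with sulfide from reduced sulfate. Glutamate-cysteine ligase then joins glutamate to cysteine in the first and limiting step of glutathione synthesis. In plants arsenate is taken up through phosphate transporters and reduced to arsenite, which binds thiols, and phytochelatins made from glutathione bind arsenite in the cell.

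The values are MAS5 signals, a summary of the brightness of a probe set on a linear scale that the depositors had brought to the same trimmed mean on every array. Differences are on the scale log2(signal + 2.1), given with their standard error (SE) and, where an interval is printed, its 95% bounds. They come from limma fitted to all 12 arrays with the experiment as a block, and p-values were adjusted over all 28461 probe sets within each comparison with a threshold of 0.05. A signal depends on the probes as well as on the RNA, so that levels are compared between groups for the same probe set and never between genes. Whether the probes match the transcripts of both varieties equally well was not checked. This limits every comparison of level between Bala and Azucena. With 3 arrays a group, the number of arrays limits the precision.

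Arrays of the same group correlated with each other with r from 0.916 to 0.974 on the log2 scale over the tested probe sets. The 6 measured root marker genes (Lsi1, Lsi2, Lsi6, OsPht1;2, NRAMP5 and AMT1-2) had a summed signal of 13598 to 14007 in Azucena controls and 11208 to 14909 in Bala controls. Under arsenate this sum was 2503 to 4760 in Azucena and 2454 to 6452 in Bala. Taken singly, all 6 passed as lower in Azucena. In Bala Lsi1 (-1.27, limma adjusted p = 0.0608) and Lsi6 (-0.21, limma adjusted p = 0.708) did not pass. The sum over 7 green shoot genes was 370, 395 and 2526 in Azucena controls, 106 to 176 in Azucena with arsenate, 1199 to 4163 in Bala controls and 211, 368 and 3568 in Bala with arsenate. Azucena control 3 and Bala arsenate 3 thus stood above the other arrays of their groups in this sum. It was lower with arsenate in Azucena, with no overlap, while the Bala groups overlapped. Taken singly, LP02, ISP and GLK1 passed as lower in Azucena (limma adjusted p = 0.0141, 0.00848 and 0.0112). In Bala ISP and GLK1 did (limma adjusted p = 0.0175 and 0.0139). CAB2R, OsrbcS and OsrcaA1 passed in neither variety, and RBCS1 was too dim for a test. The ratio of 3′ to 5′ signal of the GAPDH control probe sets, a sign of RNA quality, was 7.58 to 8.60 in Azucena controls, 8.86 to 23.8 in Azucena with arsenate, 1.43 to 2.17 in Bala controls and 3.53 to 3.78 in Bala with arsenate. In each variety the root marker sum was lower and the GAPDH ratio higher with arsenate, with no overlap. The GAPDH ratio was also higher in Azucena than in Bala, with no overlap. For actin the ratio was 2.24 to 6.87 in Azucena controls and 2.54 to 3.66 in Bala controls. For cyclophilin it was 2.08 to 2.54 and 1.88 to 2.44. With arsenate actin had 5.15 to 8.45 in Azucena and 6.82 to 8.59 in Bala, and cyclophilin 2.46 to 3.23 and 2.08 to 2.9. The actin and cyclophilin ratios thus overlapped between the varieties and, in Azucena, between control and arsenate. In Bala the actin ratio was higher with arsenate, with no overlap, and the cyclophilin ratio overlapped. The part of these measures in the results was not tested. Without Azucena control 3 and Bala arsenate 3, 2 of the 4 genes again passed with arsenate in Azucena and all 4 in Bala, SAT5 with a limma adjusted p of 0.049. Among the arrays left, the green shoot sum was lower with arsenate in both varieties, with no overlap. That refit therefore does not test the part of this sum in the calls.

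With arsenate, SAT4 and gcs rose in both varieties, and SAT5 and rcs1 rose in Bala. SAT4 was about 21.6-fold higher in Azucena and 7.83-fold higher in Bala, gcs 2.95-fold and 2.37-fold, rcs1 4.01-fold in Bala and SAT5 2.03-fold in Bala. In Azucena 2 of the 4 genes were higher, where 10.7% of all tested probe sets passed the threshold as higher, 10.3% as lower and 21.0% in either direction. In Bala all 4 were higher, where 6.19% of all tested probe sets passed as higher, 5.68% as lower and 11.9% in either direction. The count in Bala fell to 1 without experiment 1 and to 0 without experiment 2. As the 4 genes were chosen with earlier results of these data known, their counts are a description and test nothing about such genes. The cysteine synthesis genes SAT1, SAT2 and rcs3, outside the 4, passed in neither variety on their brightest probe set. Averaged over both varieties, all 4 were higher, against 17.2% of all tested probe sets as higher, 14.5% as lower and 31.7% in either direction, and 2 without experiment 2. The median change of the 4 genes was 0.96 in Azucena, 1.62 in Bala and 1.29 on average, and that of all tested probe sets was 0.10, 0.06 and 0.07. These comparisons share arrays with each other, the average and the difference being built from the same 12 as the changes in each variety.

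**Figure D1:**
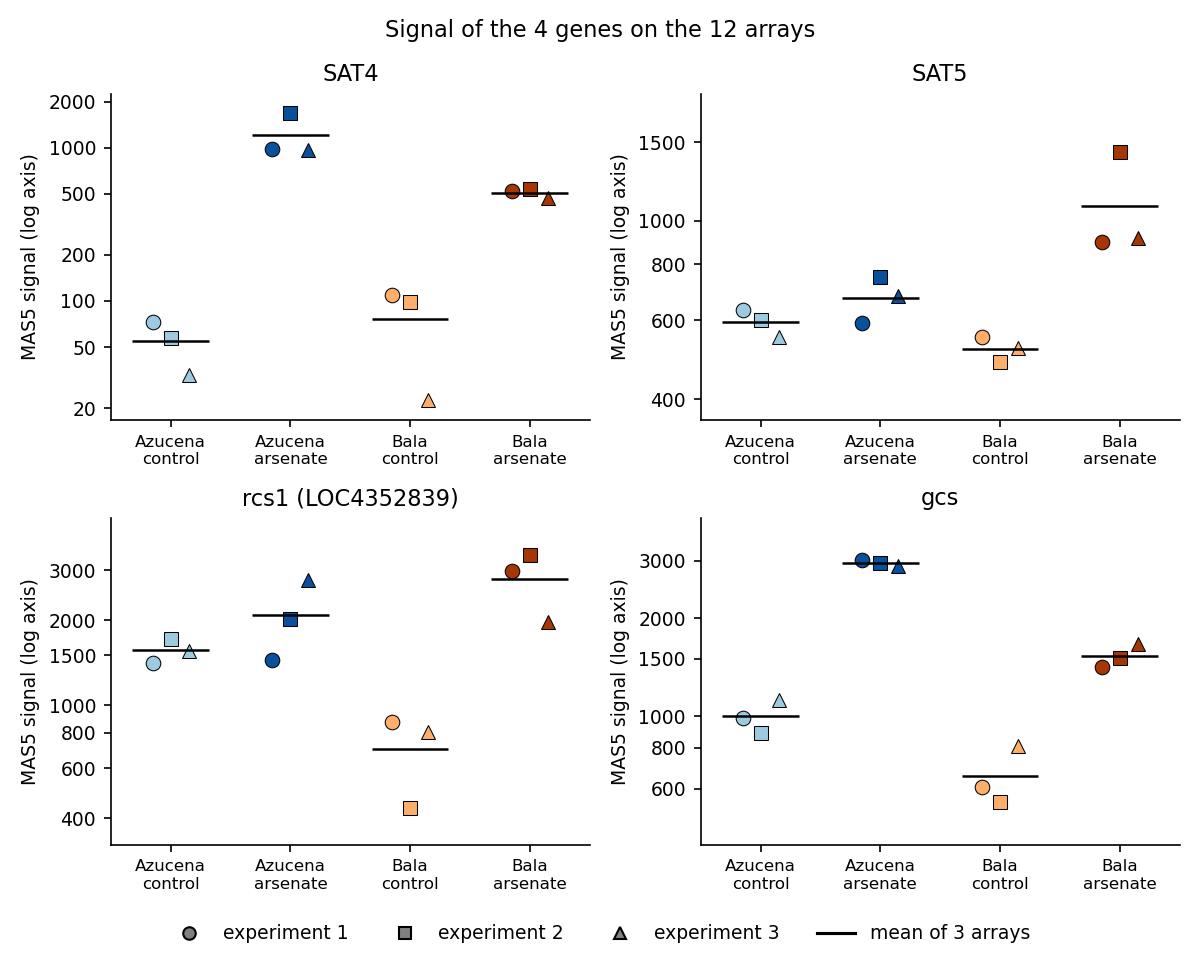
MAS5 signal (log axis) of SAT4, SAT5, rcs1 and gcs, by group, with 1 point per array, its shape giving the experiment and the bar the mean of the 3 arrays. SAT4 and gcs are higher with arsenate on every array of both varieties, while SAT5 and rcs1 of Azucena overlap between control and arsenate.

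SAT4 encodes a serine acetyltransferase, and its probe set OsAffx.25032.1.S1_s_at is of a kind that can match transcripts of several genes. Its signal in Azucena controls was 73.3, 57.4 and 32.9 in experiments 1, 2 and 3, and in Azucena with arsenate it was 979.8, 1671.1 and 966.9. In Bala controls it was 109.2, 98.7 and 22.5, and in Bala with arsenate 518.9, 536.4 and 470.9. The arsenate arrays lay above all control arrays in both varieties, and the lowest control of each variety was that of experiment 3. The change was 4.44 ± 0.40 in Azucena (SE, n = 3 a group, interval 3.53 to 5.34, limma adjusted p = 0.000349). In Bala it was 2.97 ± 0.40 (interval 2.06 to 3.88, limma adjusted p = 0.00276). Few probe sets changed as much: 0.348% of those tested had a change at least as high in Azucena, and 0.949% in Bala.

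The change of SAT4 also varied between experiments. In Azucena they gave 3.70, 4.81 and 4.79, and in Bala 2.23, 2.42 and 4.27. The value of Bala in experiment 3 stood above the other two. The control signal there was 22.5, the lowest of Bala, and the arsenate signal 470.9 was close to those of the other experiments. Without experiment 2 the change in Bala no longer passed (limma adjusted p = 0.0575). The response of Bala minus that of Azucena was -1.47 ± 0.56 (interval -2.75 to -0.19, limma adjusted p = 0.408, unadjusted p = 0.0293), which did not pass.

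SAT5 encodes another serine acetyltransferase. Its main probe set, Os.48286.1.A1_at, gave 632.9, 601.7 and 550.1 in Azucena controls and 590.3, 748.2 and 679.7 with arsenate, and these groups overlapped. In Bala it gave 551.5, 484.2 and 519.1 in controls and 898.5, 1427.2 and 916.1 with arsenate, with no overlap and the highest signal in experiment 2. The change was 0.17 ± 0.20 in Azucena (interval -0.29 to 0.63, limma adjusted p = 0.576) and 1.02 ± 0.20 in Bala (interval 0.56 to 1.49, limma adjusted p = 0.0145). By experiment it was -0.10, 0.31 and 0.30 in Azucena and 0.70, 1.56 and 0.82 in Bala. A change at least as high as that in Bala was found for 7.17% of tested probe sets. The call in Bala was lost with no filter on low signals (limma adjusted p = 0.0633), when only the Bala arrays were fitted (limma adjusted p = 0.11), without Bala control 2 (limma adjusted p = 0.0579) and without Bala arsenate 2 (limma adjusted p = 0.0570). It was also lost without each of experiments 1, 2 and 3 (limma adjusted p = 0.0941, 0.203 and 0.0573).

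The other probe set of SAT5, Os.52511.1.S1_at, had a mean signal of 7.2 and was left out of the tests by the filter at 9.4. Its signal was 11.2, 15.9 and 27.2 in Azucena controls and 3.6, 6.9 and 19.2 in Azucena with arsenate, and at most 0.7 on the 6 Bala arrays. When all probe sets were tested with no filter, it was lower in Bala than in Azucena, with a difference of -2.96 ± 0.38 without arsenate (limma adjusted p = 0.00186) and -2.03 ± 0.38 with arsenate (limma adjusted p = 0.0152). The main probe set had a difference of -0.20 ± 0.20 without arsenate (limma adjusted p = 0.614) and one of the opposite sign with arsenate (0.65 ± 0.20, limma adjusted p = 0.0695), so that the probe sets of SAT5 disagree.

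The gene rcs1, measured by Os.2258.1.S1_at, encodes the enzyme that forms cysteine from O-acetylserine and sulfide. It gave 1414.8, 1719.5 and 1558.6 in Azucena controls. With arsenate Azucena had 1451.1, 2022.7 and 2775, so that the groups overlapped and the spread was widest among the treated arrays. Bala had 873, 435.6 and 803.1 without and 2978.5, 3392.3 and 1969.6 with arsenate, with no overlap. The change was 0.37 ± 0.35 in Azucena (interval -0.43 to 1.17, limma adjusted p = 0.487) and 2.01 ± 0.35 in Bala (interval 1.21 to 2.80, limma adjusted p = 0.00868). The experiments gave 0.04, 0.23 and 0.83 in Azucena and 1.77, 2.96 and 1.29 in Bala. In Bala 2.26% of tested probe sets had a change at least as high, and the call was lost without experiment 1 (limma adjusted p = 0.0715) or experiment 2 (limma adjusted p = 0.132).

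Glutamate-cysteine ligase is measured by 3 probe sets of gcs, whose name in the tables also includes GSH1-1. On the brightest, Os.12568.1.S1_x_at, whose ending marks probes that may also match other transcripts, Azucena controls gave 989.8, 891.3 and 1126.2 and Azucena with arsenate 3009.4, 2955.4 and 2884.3. Bala controls gave 608.5, 544.8 and 811.5, and Bala with arsenate 1418.9, 1509.6 and 1671.8. Every arsenate array lay above every control array of its variety, and the 3 Azucena arsenate arrays lay close together. The change was 1.56 ± 0.17 in Azucena (interval 1.17 to 1.95, limma adjusted p = 0.000799) and 1.24 ± 0.17 in Bala (interval 0.85 to 1.63, limma adjusted p = 0.00303). By experiment it was 1.60, 1.73 and 1.36 in Azucena and 1.22, 1.47 and 1.04 in Bala. Changes at least as high were found for 3.97% of tested probe sets in Azucena and 5.07% in Bala. The call in Bala was lost without experiment 1 (limma adjusted p = 0.0753) or experiment 2 (limma adjusted p = 0.105).

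The other probe sets of gcs gave the same call in both varieties. Os.12568.2.S1_at changed by 1.45 in Azucena (limma adjusted p = 0.00125) and 1.30 in Bala (limma adjusted p = 0.00287). Os.12568.1.S1_at changed by 2.42 in Azucena (limma adjusted p = 0.000156) and 1.93 in Bala (limma adjusted p = 0.000417). Its signals were lower than those of the other probe sets, at 258 ± 45.1 (SD, n = 3) in Bala controls, and the size of the change thus depended on the probe set. The second glutamate-cysteine ligase gene of the tables, GSH1-2, was not analysed here.

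**Figure D2:**
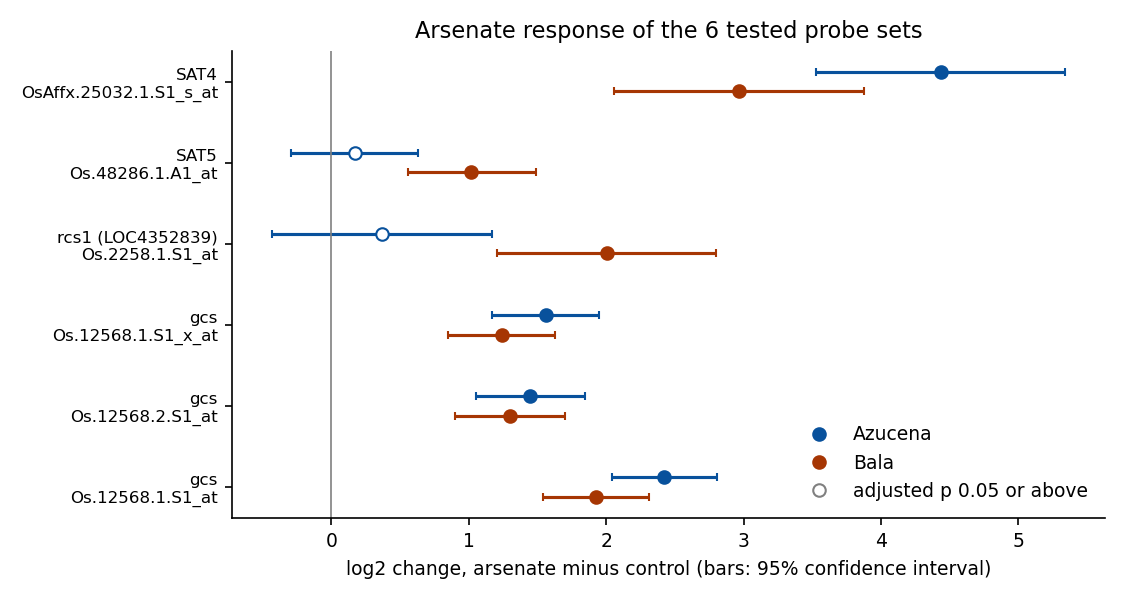
Change with arsenate (horizontal axis, log2(signal + 2.1) scale) of the 6 tested probe sets of the 4 genes, in Azucena (blue) and Bala (red), as the fitted value with its 95% interval, an open point marking an adjusted p of 0.05 or above. All 3 probe sets of gcs and that of SAT4 lie above 0 in both varieties, and the intervals of SAT5 and rcs1 cross 0 in Azucena.

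The 4 genes differed in how the varieties responded, but none of these differences passed the test. The change was larger in Bala by 1.64 ± 0.50 for rcs1 (interval 0.51 to 2.77, limma adjusted p = 0.277, unadjusted p = 0.00965) and by 0.85 ± 0.29 for SAT5 (interval 0.20 to 1.50, limma adjusted p = 0.337, unadjusted p = 0.0161). For gcs it was -0.32 ± 0.24 (interval -0.87 to 0.23, limma adjusted p = 0.711). None of the 4 passed and 3 had an unadjusted p below 0.05, where 0.0914% of all tested probe sets passed (26 probe sets), 0.0422% as higher in Bala and 0.0492% as lower, and 10.4% had an unadjusted p below 0.05. The response of Bala is therefore not shown to differ from that of Azucena for any of the 4 genes, although SAT5 and rcs1 passed in 1 variety only. Averaged over both varieties, the changes were 3.70 ± 0.28 for SAT4 (limma adjusted p = 6.54e-05), 0.60 ± 0.14 for SAT5 (limma adjusted p = 0.0138), 1.19 ± 0.25 for rcs1 (limma adjusted p = 0.00777) and 1.40 ± 0.12 for gcs (limma adjusted p = 0.000117). The averaged call of SAT5 was lost with no filter (limma adjusted p = 0.0584). It was also lost without each of experiments 1, 2 and 3 (limma adjusted p = 0.0622, 0.17 and 0.0614). That of rcs1 was lost without experiment 2 (limma adjusted p = 0.0764).

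**Figure D3:**
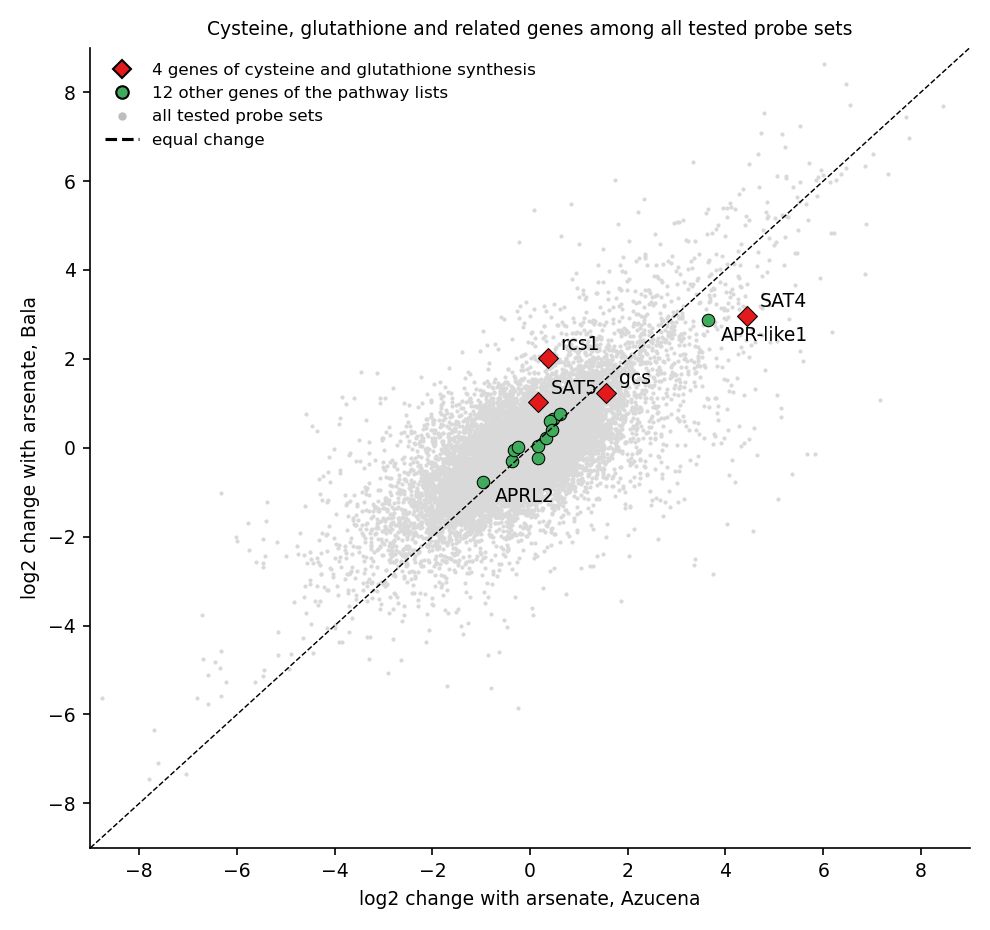
Change with arsenate in Bala (vertical axis) against that in Azucena (horizontal axis), both on the log2 scale, for all tested probe sets (grey points), the 4 genes (red diamonds) and 12 other genes of the pathway lists (green points), with a dashed line of equal change. SAT4 lies at 4.44 and 2.97 with APR-like1 near it, and SAT5 and rcs1 lie near 0 in Azucena and above 0 in Bala.

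Without arsenate, gcs was 1.54-fold lower in Bala than in Azucena, a difference of -0.63 ± 0.17 on the log2 scale (limma adjusted p = 0.0416). It alone of the 4 genes passed in that comparison, where 8.16% of all tested probe sets passed as lower, 5.59% as higher and 13.8% in either direction. The difference for rcs1 was -1.21 ± 0.35 (limma adjusted p = 0.0541), for SAT4 0.27 ± 0.40 (limma adjusted p = 0.741) and for SAT5 -0.20 ± 0.20 (limma adjusted p = 0.614). The call of gcs was lost with the other probe sets of the gene, with differences of -0.50 (limma adjusted p = 0.106) and -0.47 (limma adjusted p = 0.115), and with no experiment block (limma adjusted p = 0.0502). The call did not hold in 20 alternatives in all. The ratio of 3′ to 5′ GAPDH signal differed between the varieties in the same arrays, 7.58 to 8.60 in Azucena controls against 1.43 to 2.17 in Bala controls. The ratios of actin (2.24 to 6.87 against 2.54 to 3.66) and cyclophilin (2.08 to 2.54 against 1.88 to 2.44) overlapped there.

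With arsenate, gcs was 1.93-fold lower in Bala, a difference of -0.95 ± 0.17 (limma adjusted p = 0.00602), and again it alone of the 4 passed, where 7.73% of all tested probe sets passed as lower, 5.54% as higher and 13.3% in either direction. The call was lost in a fit of only the groups compared (limma adjusted p = 0.0548), without experiment 1 (limma adjusted p = 0.139) and without experiment 2 (limma adjusted p = 0.126). The differences of the others were -1.19 ± 0.40 for SAT4 (limma adjusted p = 0.0896), 0.65 ± 0.20 for SAT5 (limma adjusted p = 0.0695) and 0.43 ± 0.35 for rcs1 (limma adjusted p = 0.505). The other probe sets of gcs gave -0.65 (limma adjusted p = 0.0423) and -0.96 (limma adjusted p = 0.00529). For gcs the signal thus ran from Azucena arsenate over Bala arsenate and Azucena control to Bala control. Bala arsenate (1418.9 to 1671.8) and Azucena control (891.3 to 1126.2) did not overlap, but that pair was not tested. SAT5 and rcs1 were highest in Bala arsenate and lowest in Bala controls, while SAT4 was highest in Azucena arsenate and lowest in Azucena controls. In these orders, which are of means, the control groups of the varieties overlapped for SAT4 and SAT5, the arsenate groups of the varieties overlapped for rcs1, and the Azucena groups overlapped for SAT5 and rcs1.

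**Figure D4:**
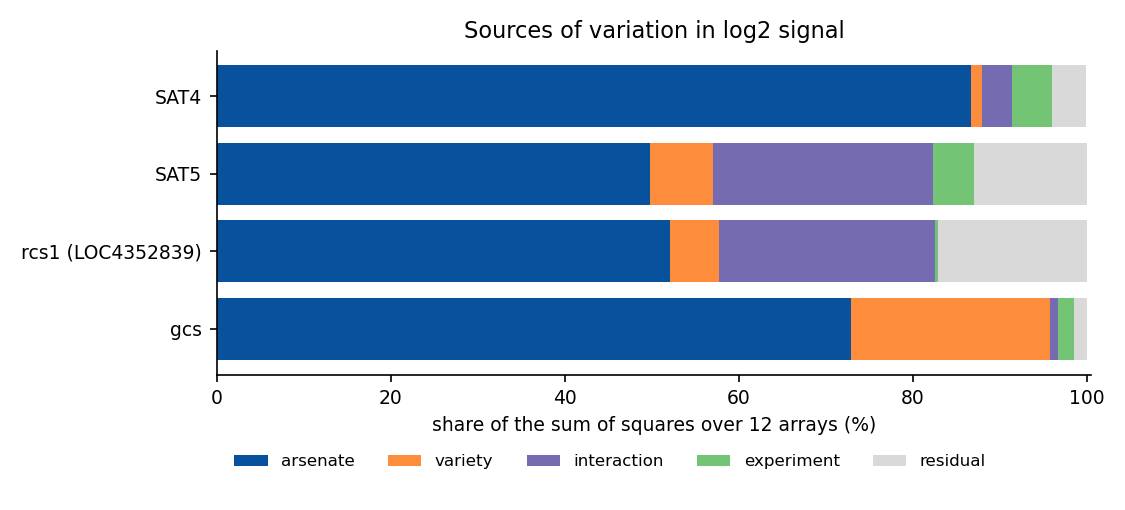
Share of the sum of squares of each gene's log2 signal over the 12 arrays (horizontal axis, in percent) that belongs to arsenate, variety, their interaction, experiment and the residual, in stacked bars. Arsenate takes the largest share for each of the 4 genes, from 49.8% for SAT5 to 86.7% for SAT4.

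Arsenate took 86.7% of the sum of squares of log2 signal of SAT4 over the 12 arrays, 72.9% of that of gcs, 52.1% of that of rcs1 and 49.8% of that of SAT5, where the median over all tested probe sets was 18.6%. For gcs 22.9% lay between the varieties, where the median over all tested probe sets was 10.3%. The interaction took 25.3% for SAT5 and 24.9% for rcs1, but 3.4% for SAT4 and 0.9% for gcs. Its median over all tested probe sets was 3%. Experiments took 4.6% for SAT4, 4.7% for SAT5, 0.3% for rcs1 and 1.8% for gcs, and the median over all tested probe sets was 9.8%.

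The other genes of sulfur assimilation were looked up by symbol in lists of cysteine synthesis, sulfate reduction, S-adenosylmethionine synthesis, glutathione turnover and thiol transport. These lists gave 12 more genes with a tested probe set. A match by symbol does not show that a gene acts in the pathway of its list. In Azucena 1 of the 12 was higher and 1 lower, in Bala 2 were higher and none lower, and on average 5 were higher and 1 lower. For the difference in response none passed and none had an unadjusted p below 0.05. For both variety comparisons none passed and 1 had an unadjusted p below 0.05. Of all tested probe sets 25.7% had such an unadjusted p without arsenate and 25.9% with arsenate. The percentages of all tested probe sets given for the 4 genes apply to these counts as well.

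The cysteine synthesis genes outside the 4 were 3: SAT1, SAT2 and the cysteine synthase gene rcs3, and none passed in either variety. SAT1 changed by 0.16 in Azucena and -0.24 in Bala, and SAT2 by 0.17 and 0.05. For rcs3 the changes were 0.46 ± 0.20 (limma adjusted p = 0.126) and 0.65 ± 0.20 (limma adjusted p = 0.0652), and on average it rose by 0.56 ± 0.14 (limma adjusted p = 0.0162). That call was lost with no filter (limma adjusted p = 0.0684) and without experiment 1 or 2 (limma adjusted p = 0.102 and 0.127). Among the serine acetyltransferases with a tested probe set, SAT4 thus rose in both varieties and SAT5 in Bala, on their brightest probe set. In Azucena SAT5 changed by 0.17 (limma adjusted p = 0.576), close to SAT1 and SAT2. SAT3 was not analysed here. A dim probe set of SAT1, Os.57351.1.S1_at, gave 25.4, 37 and 22.5 in Azucena controls, 17.3, 17.4 and 12.6 with arsenate, and 0.4 to 1.6 in Bala. It fell in Azucena by 0.75 ± 0.18 (limma adjusted p = 0.0221), and the difference of Bala minus Azucena without arsenate was -3.48 ± 0.18 (limma adjusted p = 5.74e-06), while the main probe set of SAT1 had 0.80 ± 0.24 there (limma adjusted p = 0.0581).

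Among the 12 other pathway genes the largest change was that of APR-like1, which the tables also name APR1 and OsAPRL1. APR is the usual symbol of adenylyl-sulfate reductase, the enzyme that reduces activated sulfate, and the tables do not settle whether this gene encodes it or a related protein. Its signal was 274.5, 273.3 and 41.9 in Azucena controls and 1406.8, 2245 and 2094.6 with arsenate. In Bala it was 605, 516.5 and 43.2 in controls and 1920.3, 2194.4 and 1354 with arsenate. As for SAT4, the lowest control in both varieties was that of experiment 3. It rose by 3.65 ± 0.72 in Azucena (limma adjusted p = 0.00957) and by 2.88 ± 0.72 in Bala (limma adjusted p = 0.0349), but the Bala call was lost in 14 of 25 alternatives, among them the fit with no experiment block (limma adjusted p = 0.0757). Its 2 dimmer probe sets passed in Azucena, with 3.17 for Os.19519.1.S1_s_at (limma adjusted p = 0.0125) and 1.41 for Os.19519.1.S1_at (limma adjusted p = 0.0168), but not in Bala, with 2.03 (limma adjusted p = 0.0834) and 0.67 (limma adjusted p = 0.212). Of the other genes with such names, APRL2 fell by 0.97 ± 0.23 in Azucena (limma adjusted p = 0.0214, lost in 8 of 25 alternatives) and had -0.76 in Bala (limma adjusted p = 0.0685). For APRL3 and APRL4 the changes lay between -0.33 and 0.32 in both varieties, and neither these nor the fifth gene of the list passed.

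**Figure D5:**
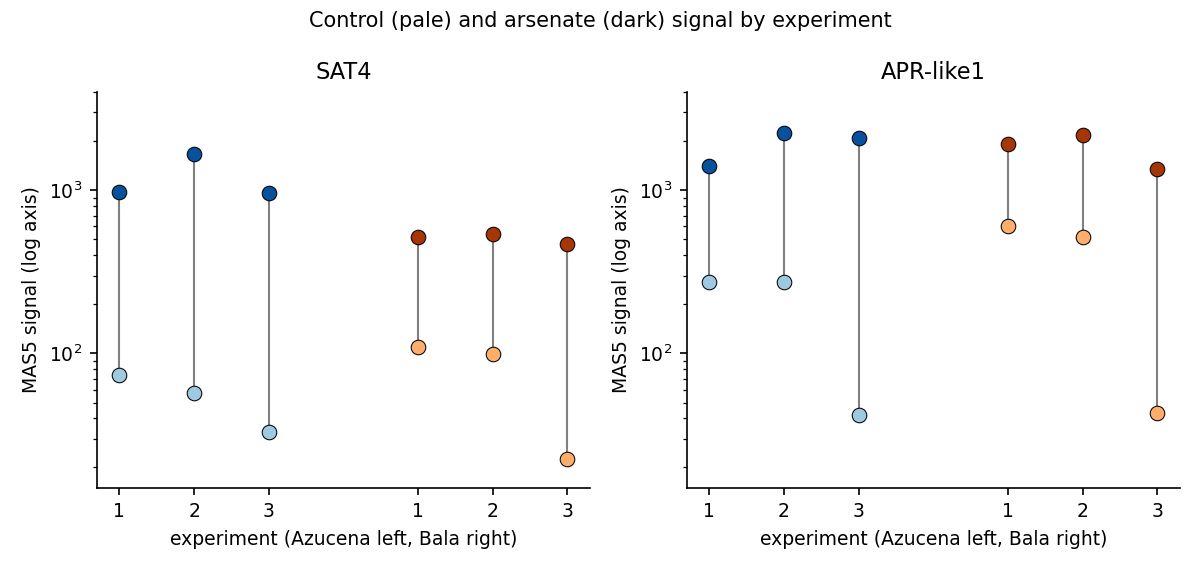
MAS5 signal (log axis) of SAT4 and APR-like1 in each of the 3 experiments, Azucena on the left and Bala on the right of each panel, with control (pale) and arsenate (dark) of an experiment joined by a line. The control of experiment 3 is the lowest of its variety for both genes, at 22.5 for SAT4 and 43.2 for APR-like1 in Bala.

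GR, with the symbol of glutathione reductase, which returns oxidised glutathione to its reduced form, had 0.62 ± 0.21 in Azucena (limma adjusted p = 0.0639). In Bala it rose by 0.77 ± 0.21 (limma adjusted p = 0.0449), a call that was lost in 18 of 25 alternatives. SAM2, with the symbol of S-adenosylmethionine synthetase, changed by 0.41 in Azucena (limma adjusted p = 0.123) and 0.61 in Bala (limma adjusted p = 0.051), and SAM1 by -0.24 and 0.02. ABCC13, of the ABCC transporter family, also bears the names LPA2 and OsMRP5, and its names do not settle whether it moves thiols. It changed by 0.44 and 0.41 and passed on average (0.42, limma adjusted p = 0.0326). That call was lost in 15 of 24 alternatives, among them no experiment block (limma adjusted p = 0.0506). Sulfate transporters, ATP sulfurylases, sulfite reductases and phytochelatin synthases were not analysed here.

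The genes whose profile over the 12 arrays was most like that of each of the 4 were named by the smallest root mean square difference of centred log2 values, as a description. For SAT4 these were HSP26.2 (0.59), LOC4349196 (0.60), HDA703 (0.62), LOC4327868 (0.63) and LOC4333957 (0.63), where the median over all genes was 1.98. For SAT5 they were LOC4347141 (0.16), LOC4332593 (0.19), LOC4336873 (0.21), BI-1 (0.21) and LOC4324382 (0.22), with a median of 0.59. For rcs1 they were LOC4326512 (0.37), LOC4344565 (0.38), LOC4333569 (0.40), LOG (0.40) and LOC9268297 (0.41), with a median of 0.91. For gcs they were LOC4328660 (0.22), LOC4332047 (0.24), DRB1 (0.26), LOC4344589 (0.26) and LOC4344370 (0.27), with a median of 0.88. None of the 4 genes was among the 5 most like genes of another. Between them the difference was smallest for SAT5 and rcs1, at 0.55, and largest for SAT4 and SAT5, at 1.78. The 0.55 was near the median of 0.59 for SAT5, and rcs1 ranked 6707 among 15638 genes in likeness to SAT5. In the same ranking gcs stood at 454 for SAT4, 475 for rcs1 and 11037 for SAT5.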

How the data were processed

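Root RNA was labelled from 5 ug and hybridised to 12 rice genome arrays. The authors deposited intensity values, which are signals of the MAS5 algorithm, per the submitters' processing notes (no version). Their mean after trimming 2% at each end was 100 on every array. Names came from the platform annotation and RefSeq's gene table. The deposited signals were taken as log2(signal + 2.1), the 25th percentile, and 28461 of 57258 probe sets with a mean above 9.4 were tested in R 4.3.3 with limma 3.58.1; 123 controls were left out. The model held 4 group means and an experiment term, with 6 residual degrees of freedom and 2.85 from the prior. The pairing comes from the design, where a number marks 1 experiment. As a check, deviations from group means had a median r of 0.131 between arrays of 1 experiment and -0.0359 between others. Adjustment was that of Benjamini and Hochberg. The brightest probe set stood for a gene. Genes named are the 4 with every probe set, up to 4 a list by adjusted p within a variety, and the 5 most alike. Genes, lists and tests were chosen with earlier results of these data known. Alternatives changed the block, pseudocount (0.4 or the 50th percentile), filter (none or 49.1), scaling (quantile, median), limma options, groups fitted and probe sets, and left out arrays and experiments.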

Additional observations from a re-analysis of the deposited data

How the results depend on the processing

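Of 604 values of the 24 member results under an alternative, 548 kept their direction and their side of the threshold, 40 were no longer past it, 15 were newly past it, and 1 reversed: SAT4 between the varieties without arsenate, 0.27 with all arrays, was -0.07 without Bala control 1 and ran from there to 0.81 over the arrays and experiments left out. With the experiment block taken out, the pairing changed no count of members, but gcs without arsenate was at -0.63 with an adjusted p of 0.0502 and rcs1 at -1.21 with 0.0312. In Azucena 2 members passed under all 27 alternatives, and in the difference none did.

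Over arrays and experiments left out in turn, the count of members past the threshold ran from 0 to 4 in Bala (0 without experiment 2), from 2 to 4 on average, and from 0 to 2 in both variety comparisons. Without arsenate, the variety count was 2 with the 50th percentile pseudocount, the 70th percentile filter, quantile normalization, and limma's trend and robust options, and 0 with no filter, median centring, a fit of only the groups compared, either other gcs probe set, and without Azucena control 3 and Bala arsenate 3 (an alternative chosen after seeing the data). With arsenate it was 2 with the 50th percentile pseudocount, the 70th percentile filter, median centring, and trend and robust, and 0 in the fit of only the groups compared.

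For the 12 other pathway genes the count in Azucena was 1 with no filter and with only the groups compared, 5 with trend and robust, and 0 to 2 over arrays left out. In Bala it was 1 with the 5th percentile pseudocount, 4 with the 50th percentile and with quantile normalization, 5 with the 70th percentile filter and with trend and robust, 0 with no filter, with only the groups compared and without those 2 arrays, and 0 to 2 over arrays left out. On average it was 3 with no filter and 1 to 6 over arrays left out. Between the varieties it was 1 without arsenate with the 50th percentile pseudocount, the 70th percentile filter, quantile normalization, median centring, and trend and robust, and 0 to 1 over arrays left out, and 1 with arsenate with the 70th percentile filter and with trend and robust.

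Counts over all probe sets moved by more than 1.5 times in these cases. In Azucena 5989 became 3102 with no filter and 3656 with only the groups compared, and 858 to 6539 over arrays left out. In Bala 3379 became 1602 and 1553, 1886 without those 2 arrays, and 429 to 3730. On average 9033 became 5966 with no filter and 3216 to 9407. In the difference 26 became 58 with no block, 17 and 138 with the lower and higher pseudocount, 5 with no filter, 56 with the higher filter, 71 with median centring, 77 with trend and robust, 1 without those 2 arrays and 0 to 97 over arrays left out. Between the varieties 3914 became 2604 without those 2 arrays (1748 to 4184 over arrays left out), and 3779 became 2484 with the higher filter (1653 to 4138). Centring on the median shifted the median over the tested probe sets from 0.06 to -0.10 in Bala, from -0.03 to -0.28 in the difference, from 0.01 to 0.16 without arsenate and from 0 to -0.10 with arsenate. It moved the share of calls that were higher from 52.1% to 36.2% in Bala, from 46.2% to 28.2% in the difference, from 40.6% to 51.7% without arsenate and from 41.8% to 33.7% with arsenate. Relative to it, gcs changed by 1.65 in Azucena and 1.08 in Bala and SAT4 by 4.53 and 2.81, all past the threshold. The cause of these moves was not tested. The second SAT5 probe set could not be tested under the main filter.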

Other observations

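The 3 annotated genes on each side of SAT4, SAT5, rcs1 and gcs in RefSeq's order were read as a description. Of these 24 neighbours 13 had a tested probe set. LOC4352840, next to rcs1, fell in Azucena by 0.92 (limma adjusted p = 0.0327) and had 0.29 in Bala (limma adjusted p = 0.496), where rcs1 itself rose. LOC4339426, next to SAT5, had 0.49 in Azucena (limma adjusted p = 0.115) and rose in Bala by 0.91 (limma adjusted p = 0.0227). None of the other 11 passed in either variety. Thus 1 of the 13 passed in each variety, where 21.0% of all tested probe sets passed in Azucena and 11.9% in Bala.

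A dim probe set of SAM2, Os.12223.2.S1_at, gave 0.3 to 12.3 on the Azucena arrays and 23.1 to 62.6 on the Bala arrays. It was higher in Bala by 3.38 ± 0.66 without arsenate (limma adjusted p = 0.0089) and by 3.54 ± 0.66 with arsenate (limma adjusted p = 0.00728). Like the dim probe sets of SAT1 and SAT5, it thus differed between the varieties, but in the opposite direction, and its main probe set did not pass there.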
